A study of Mus musculus with 3 samples.

Results

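The neuregulins and their ErbB receptors were examined in LepR+ cells of the mouse superior cervical ganglion, which holds sympathetic neurons and their glia. The 8 genes, 4 receptors (Egfr, Erbb2, Erbb3 and Erbb4) and 4 neuregulins (Nrg1, Nrg2, Nrg3 and Nrg4), were taken by gene symbol from the 52550 genes of the deposited table. Each symbol matched 1 row, and all 8 genes had at least 1 read in at least 1 library. The series held 1 group of 3 libraries, labelled biological replicates, from male LepRCRE::Ai32 mice aged 10 weeks, called LepReYFP in the protocol. Live reporter-positive cells were collected by flow sorting and made into Smart-Seq2 libraries, which copy full-length RNA and amplify the cDNA by PCR. In these mice Cre is made from the leptin receptor gene Lepr and switches on a channelrhodopsin fused to yellow fluorescent protein. Such a reporter stays on once it has recombined, so a sorted cell need not make Lepr at the time of the sort. The sources used here do not give the numbers of cells and animals behind a library, so the spread between libraries may be partly technical.

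ErbB receptors are membrane tyrosine kinases that work in pairs. Neuregulins bind ErbB3 and ErbB4, the ligands of the epidermal growth factor (EGF) type bind the receptor encoded by Egfr, and ErbB2 binds no known ligand and serves as the partner of the others. ErbB3 has little kinase activity of its own and is phosphorylated by its partner, after which it recruits PI3-kinase. In peripheral nerve, neuregulin 1 on axons acts through ErbB2 and ErbB3 on Schwann cells and their precursors, whose survival, migration and myelination depend on it.

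The deposited values were log2 TPM, a share of each library corrected for gene length, so levels of different genes can be compared. Whole reads were recovered from them and came to 8236735, 8037419 and 7721631 for replicates 1, 2 and 3. A value holds 0.25 read added to every gene, so for low genes reads are given beside TPM, and a library without a read is given as 0 reads. In limma's test 9 of 12 satellite glial and Schwann markers lay above 1 TPM, and 2 of 12 perineurial markers, Cldn1 and Tjp1, where 16.2% of all genes tested were called above. The perineurial count is near that share and is not read further. The counts were 5 of 10 for fibroblast, 4 of 8 for mural, 3 of 8 for endothelial, 1 of 12 for sympathetic neuron and 0 of 8 for macrophage markers (also 0 at an unadjusted p and with a mean-variance trend). Of the neuronal markers, Npy had no read and Th had 0, 1 and 4 reads. Summed over each list, glial markers took 19501 to 23185 TPM per library, fibroblast markers 4470 to 6614, perineurial markers 317 to 535, mural markers 89.2 to 464, endothelial markers 299 to 407, neuronal markers 61.4 to 91.8 and macrophage markers 1.34 to 102 TPM. Fabp7 alone made up most of the glial sum. The other 11 glial markers summed to 6845, 6364 and 7643 TPM in replicates 1, 2 and 3, and the markers Ngfr and Gfap had 23, 1 and 1 and 30, 0 and 1 reads. The other 11 perineurial markers, without Cldn1, their highest, summed to 101, 289 and 174 TPM. The series title calls the cells perineurial and the sample titles call them LepR+ cells, and the second name is used. Of the 12 perineurial markers, 7 passed neither way and 2 were called below 1 TPM, as were 13.6% of all genes tested. Their list median was 2.36 in log2(TPM + 1), against 0.89 over all genes tested. These calls do not settle the first name. In sorted bulk samples, fewer cells of a type and less RNA per cell cannot be told apart.

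Erbb3 was the one member of the family at a high level in every library. It had 319, 403 and 252 TPM in replicates 1, 2 and 3, from 4901, 6202 and 3631 reads. Replicate 2 was the highest and replicate 3 the lowest, and the lowest library still lay far above the highest value of any other member, which was 28.2 TPM. The mean was 325 ± 75.5 TPM (SD, n = 3), which on the log2(TPM + 1) scale was 7.32 over the value at 1 TPM, with a standard error of 0.22 (limma's moderated test, adjusted p = 0.00336). Of the 27396 genes tested, 16.2% were called above 1 TPM and 13.6% below it. Ranked by TPM among those genes, Erbb3 stood at rank 399, 266 and 591 in replicates 1, 2 and 3, which is percentile 98.5, 99.0 and 97.8. The call was lost without replicate 1 (limma, adjusted p = 0.0739) and without replicate 2 (limma, adjusted p = 0.0651), and was kept without replicate 3 (limma, adjusted p = 0.0358). Without replicate 1 or replicate 2 limma called 0 genes of the whole table above 1 TPM, while 4646 and 4453 passed an unadjusted p of 0.05. Erbb3 (ENSMUSG00000018166.8) lies on chromosome 10, 128567523 to 128589652 of GRCm38, on the minus strand, with 1 annotated transcript and no exon shared with another gene in GENCODE M21.

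The coding sequence of Erbb3 ends in a stretch rich in the motif through which the receptor binds the regulatory subunit of PI3-kinase, a tyrosine followed 3 residues later by a methionine. In codons this is TAT or TAC, any 6 bases (NNNNNN), then ATG, searched in frame on the coding strand over the last 500 codons of the longest coding sequence in the GENCODE M21 transcripts. Erbb3 held 7 such matches, Erbb4 2, and Egfr and Erbb2 1 each. Of 8117 mouse genes with a coding sequence of that length, 25.5% held at least 1 match and 0.0246% held 7 or more. All matches of Erbb3, Egfr and Erbb2 and 1 of Erbb4 are shown with 6 flanking bases on each side, 5′ to 3′ on the coding strand, because their number sets Erbb3, the receptor read strongly here, apart from its relatives. Capitals mark the tyrosine and methionine codons. Codons are counted from the start codon, and coordinates are those of GRCm38, on the minus strand for Erbb3 and Erbb4 and on the plus strand for Egfr and Erbb2.
Erbb3 codon 939, chr10:128571646-128571669: gacgtcTACatggtcATGgtcaag
Erbb3 codon 1051, chr10:128570960-128570983: tctggaTACatgcccATGaaccag
Erbb3 codon 1194, chr10:128569791-128569814: gaggagTATgaatacATGaaccgg
Erbb3 codon 1219, chr10:128569716-128569739: ctgggcTATgagtacATGgatgtg
Erbb3 codon 1257, chr10:128569602-128569625: gaggacTATgaatacATGaaccgc
Erbb3 codon 1273, chr10:128569554-128569577: ggggatTATgcagctATGggggcc
Erbb3 codon 1286, chr10:128569515-128569538: caagggTATgaggaaATGcgagct
Erbb4 codon 1056, chr1:68043908-68043931: cctgccTACacccccATGtcggga
Egfr codon 946, chr11:16906858-16906881: gatgtcTACatgatcATGgtcaag
Erbb2 codon 953, chr11:98434924-98434947: gacgtcTACatgatcATGgtcaaa
The match at codon 939 of Erbb3 has a counterpart at codon 946 of Egfr and codon 953 of Erbb2, within the conserved kinase domain. A match of letters does not show that a site is used, and no measurement here bears on phosphorylation.

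Egfr, the receptor for EGF-type ligands, was uneven between libraries. It had 12.9, 0.526 and 28.2 TPM from 374, 15 and 764 reads. Replicates 1 and 3 were high and replicate 2 was low, under 1 TPM. The mean of 13.9 ± 13.9 TPM (SD, n = 3) lay 2.09 above 1 TPM on the log2(TPM + 1) scale, and did not pass the test (limma, adjusted p = 0.206). Egfr (ENSMUSG00000020122.16) lies on chromosome 11, 16752203 to 16918158, on the plus strand.

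Erbb2, the co-receptor that ErbB3 uses in Schwann cells, was high where Egfr was low. It had 0.0939, 13.0 and 0.421 TPM from 1, 173 and 5 reads, so replicate 2 carried nearly all of its reads. The mean of 4.50 ± 7.35 TPM (SD, n = 3) lay 0.48 above 1 TPM on the log2(TPM + 1) scale and was not called (limma, adjusted p = 0.705). Without replicate 2 the difference turned to -0.68 (limma, adjusted p = 0.144). Erbb2 (ENSMUSG00000062312.5) lies on chromosome 11, 98412470 to 98437716, on the plus strand. It shares 9 exon bases with Mien1, a gene on the other strand that had 225, 41 and 151 reads. The sources used here do not give the strand setting of the counting, so reads over those bases cannot be assigned to either gene.

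Erbb4, the other neuregulin receptor and a functional kinase, was close to the limit of detection. It had 7, 2 and 0 reads in replicates 1, 2 and 3, which was 0.230 and 0.0712 TPM in the first 2 libraries, and 3 reads would be 0.0950, 0.0949 and 0.101 TPM. It was called below 1 TPM (limma, adjusted p = 0.0487). Erbb4 (ENSMUSG00000062209.15) lies on chromosome 1, 68032186 to 69108059, on the minus strand.

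**Figure D1:**
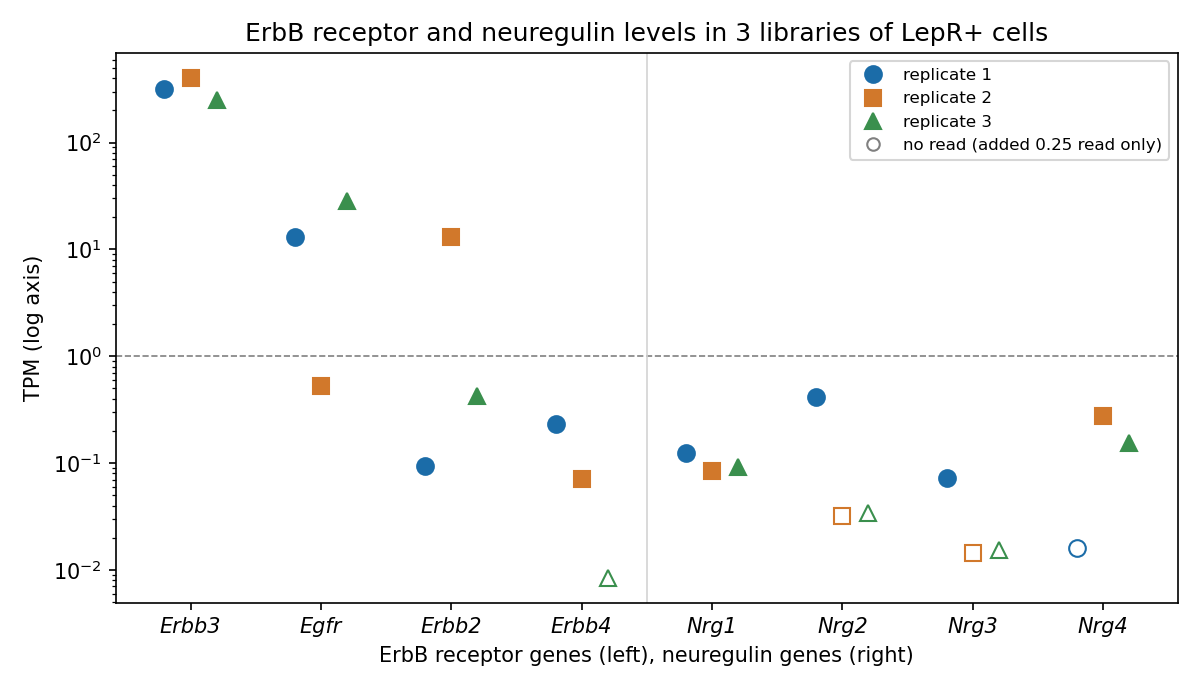
TPM of the 4 ErbB receptor genes and 4 neuregulin genes in each of the 3 libraries, on a log axis. Filled symbols have at least 1 read, open symbols stand for 0 reads and hold only the added 0.25 read, and the dashed line is 1 TPM. Erbb3 sits between 252 and 403 TPM in all 3 libraries, Egfr and Erbb2 are high in different libraries, and every neuregulin lies under 1 TPM.

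As a share of the summed TPM of the 4 receptors, Erbb3 made up 96.0%, 96.7% and 89.8% in replicates 1, 2 and 3. The rest was mostly Egfr in replicates 1 and 3, at 3.89% and 10.0%, and mostly Erbb2 in replicate 2, at 3.12%. From the reads per length, Erbb3 exceeded Erbb2 by 4244 times in replicate 1 (exact 95% interval 761 to 167678), by 31.0 times in replicate 2 (26.7 to 36.3) and by 629 times in replicate 3 (269 to 1938). The value of replicate 1 rests on 1 read of Erbb2. The intervals do not overlap between replicate 2 and the other two. Erbb3 exceeded Egfr by 24.7 times in replicate 1 (exact 95% interval 22.2 to 27.5), by 778 times in replicate 2 (472 to 1392) and by 8.95 times in replicate 3 (8.27 to 9.69). These intervals cover counting error only, not the spread between libraries. They treat each read as a separate molecule, and as PCR copies carry no molecular identifiers here, they may be too narrow even for that. Egfr was higher than Erbb2 in replicates 1 and 3 and lower in replicate 2, and the mean difference of 1.61 ± 4.18 on the log2(TPM + 1) scale was well within its SD (n = 3, exact sign-flip test, p = 0.5).

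None of the 4 neuregulins reached 1 TPM in any library. Together they had 7, 6 and 4 reads in replicates 1, 2 and 3, against 5283, 6392 and 4400 reads on the 4 receptors. Limma called 0 neuregulins above 1 TPM (0 also with a mean-variance trend, and 0 at an unadjusted p under 0.05) and 2 of 4 below it (13.6% of all genes were called below). With a mean-variance trend, or with no filter on reads, all 4 were called below, but so were 35.2% and 56.8% of all genes at those settings. Over all genes tested, the trend called 20.4% above, and the unadjusted p called 20.0% above and 30.0% below.

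Nrg1, the main axonal ligand of Schwann cells, was read in all 3 libraries at a trace level of 0.123, 0.0849 and 0.0908 TPM. Those values rest on 3, 2 and 2 reads, and the libraries did not differ by more than 1 read. The mean was 0.0995 ± 0.0204 TPM (SD, n = 3), below 1 TPM (limma, adjusted p = 0.0487). Nrg1 (ENSMUSG00000062991.7; chromosome 8, 31814551 to 32884029, minus strand) has 18 annotated transcripts, which gene-level values do not separate, so its membrane-bound and secreted forms were not resolved. It shares 482 exon bases with Gm26578 on the other strand, which had 0, 2 and 0 reads.

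Nrg3, a ligand of ErbB4 best known from brain, had 1, 0 and 0 reads and was also called below 1 TPM (limma, adjusted p = 0.0487). For Nrg3, 3 reads would be 0.172, 0.172 and 0.184 TPM. Nrg3 (ENSMUSG00000041014.17) lies on chromosome 14, 38368952 to 39473088, on the minus strand.

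Nrg2, a ligand of ErbB3 and ErbB4, had 3, 0 and 0 reads and Nrg4, a ligand of ErbB4 made by adipocytes, had 0, 4 and 2 reads. Neither passed the test (limma, adjusted p = 0.0609 for Nrg2 and 0.0516 for Nrg4). For Nrg2 3 reads would be 0.381, 0.381 and 0.407 TPM, and for Nrg4 0.193, 0.193 and 0.206 TPM. Nrg2 (ENSMUSG00000060275.12; chromosome 18, 36017652 to 36197380) and Nrg4 (ENSMUSG00000032311.17; chromosome 9, 55220222 to 55326844) both lie on the minus strand. Nrg4 shares 368 exon bases with Fbxo22 on the other strand, which had 132, 197 and 1023 reads, so whether the few Nrg4 reads belong to Nrg4 is uncertain. The 3-read floors are a convention and not a limit of detection, as fewer reads were seen for Nrg1, Nrg3 and Nrg4. At this depth levels near or below these floors can be missed, and the neuregulins are not shown to be absent.

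By mean log2(TPM + 1) the order of the levels was Erbb3 (8.32), Egfr (3.09), Erbb2 (1.48), Nrg2 (0.20), Nrg4 (0.19), Nrg1 (0.14), Erbb4 (0.14) and Nrg3 (0.05). Among neighbours in this order, only Erbb3 and Egfr differed by more than the SD of their difference, at 5.23 ± 2.54 (n = 3), with Erbb3 higher in 3 of 3 libraries. Erbb2 exceeded Nrg2 by 1.28 ± 2.19, in 2 of 3 libraries. Neighbours below Erbb2 differed by at most 0.09 and could not be ordered. Over all 28 pairs of members, 16 had the same direction in all 3 libraries, and in 13 of these the mean difference exceeded its SD. One of the 16, Nrg2 against Nrg3, had 0 reads on both sides in replicates 2 and 3, where the direction follows from gene length alone, which leaves 15. The 7 pairs that involve Erbb3 were among the 13, with mean differences from 5.23 to 8.27. With 3 libraries the exact sign-flip test, two-sided, cannot go below p = 0.25, and the lowest p adjusted over the 28 pairs was 0.438, so no pair could pass.

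The members also differed in how steady they were between libraries. Erbb3 had an SD of 0.34 in log2(TPM + 1), against a median of 0.60 for the 708 other protein-coding genes with a mean TPM within 2-fold of its own, of which 22.9% had a smaller SD. Its highest library was 1.60 times its lowest, against a median of 2.20 times for those genes. The values of Egfr and Erbb2 spanned 53.6 times and 138 times between libraries, which was common at their level. Among genes within 2-fold of their means, the median span was 40.6 times for 3180 genes beside Egfr and 57.2 times for 2128 genes beside Erbb2. The share of those genes with a smaller span was 54.0% for Egfr and 66.1% for Erbb2.

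**Figure D2:**
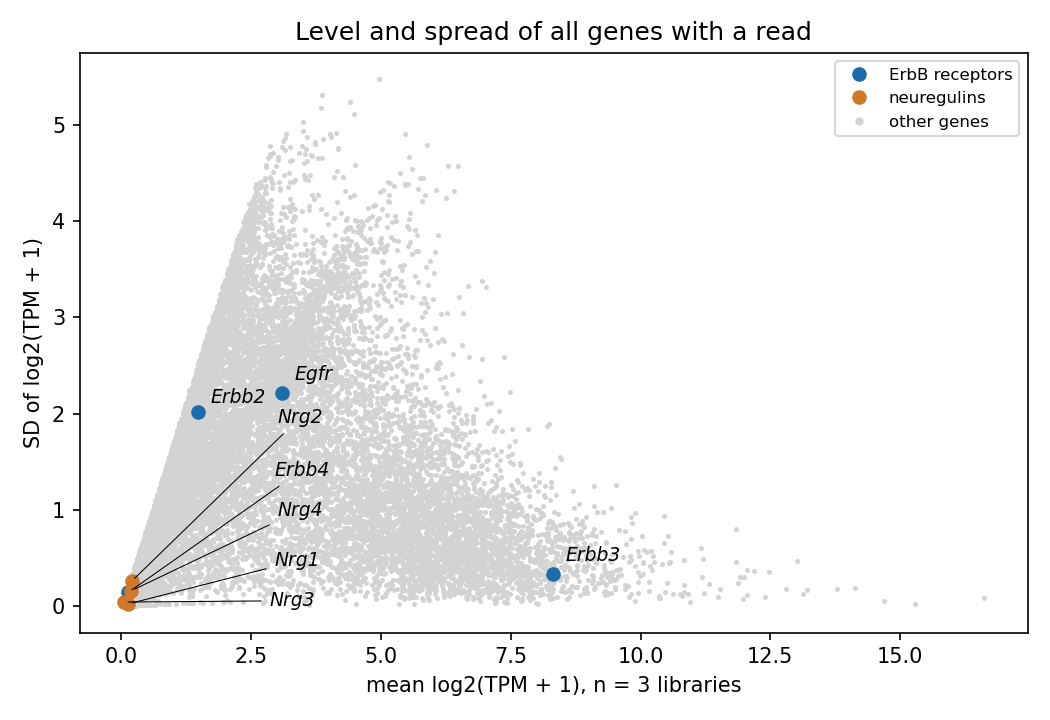
Mean of log2(TPM + 1) over 3 libraries (horizontal axis) against its SD (vertical axis) for the 27396 genes with a read, with the ErbB receptors in blue and the neuregulins in orange. Erbb3 lies far to the right with an SD of 0.34, Egfr and Erbb2 lie in the middle with SDs of 2.22 and 2.02, and the neuregulins and Erbb4 lie near the origin.

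Markers of glia did not all follow Erbb3 between libraries. Sox10, the neural crest and glial transcription factor, had 26.7, 165 and 51.6 TPM and was highest in replicate 2, as Erbb3 was. Fabp7, a glial fatty acid binding protein, was highest in replicate 1, at 16339, 13137 and 13012 TPM. Cdh19, a cadherin of peripheral glia, was highest in replicate 3, at 3995, 3330 and 5061 TPM. Replicate 2, where most reads of Erbb2 lay, was the highest library for 8 of the 11 perineurial markers with a read. It was also the highest for 5 of 8 endothelial and 5 of 12 glial markers, and replicate 1 was the highest for 5 other glial markers. Among markers with a read, replicate 2 was the highest for 4 of 7 fibroblast, 4 of 11 neuronal, 1 of 8 mural and 1 of 7 macrophage markers. Replicate 3 was the highest for 6 of the 7 macrophage markers with a read. The share of all genes with their highest value in each replicate was not counted, and these counts are not read further. The perineurial markers did not move as one. Slc2a1 had 1.59, 34.0 and 0.507 TPM, Ocln 54.1, 0.116 and 0.421 TPM, and Stxbp6 0.757, 3.12 and 68.6 TPM, while Cldn1 had 216, 246 and 220 TPM. The part of such cells in the values of Erbb2 was not tested.

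The protein-coding genes with values nearest to those of Erbb3, by root mean square difference in log2(TPM + 1) over the 3 libraries, were Myl9, Ifitm2 and Lysmd2, at 0.053, 0.054 and 0.070. Myl9 had 317, 394 and 268 TPM. Of 17135 genes compared, 10 lay within 0.2 of Erbb3. For Nrg4, the neuregulin with the highest median, 2739 genes lay as near, led by Gm4756, Sntg2 and Cd72, each with 0, 2 and 1 reads, so a likeness at that level carries little information.

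Hbegf, Tgfa and Btc, ligands of the EGF type, reached levels that no neuregulin did. Of 7 EGF-type ligands of the Egfr receptor, 1 lay above 1 TPM, 5 passed neither way and 1 had no read. Epgn had no read at all, with a 3-read floor of 0.650, 0.649 and 0.694 TPM. Limma called 0 of these ligands below 1 TPM, against 3 by the unadjusted p and 3 with a mean-variance trend. With so few ligands, these counts and the 1 above are not set apart from the shares over all genes given for those settings. The median of the list was 0.24 in log2(TPM + 1), against 0.89 over all genes tested. Hbegf, heparin-binding EGF-like growth factor, was the 1 above, at 33.0, 76.3 and 25.4 TPM and a mean of 44.9 ± 27.4 (SD, n = 3; limma, adjusted p = 0.0139). Tgfa, transforming growth factor alpha, had 0.799, 26.3 and 51.8 TPM and was not called (limma, adjusted p = 0.165), being high in replicates 2 and 3 and low in replicate 1. Btc, betacellulin, had 0.281, 2.61 and 2.80 TPM (limma, adjusted p = 0.538). Egf had 10, 1 and 4 reads, Ereg 3, 0 and 0, and Areg 0, 1 and 0. In replicate 3 Egfr and Tgfa were both above 20 TPM, while in replicate 1 Egfr was read with little Tgfa and in replicate 2 Tgfa was read with little Egfr.

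Among 4 other membrane proteins, with EGF-like domains related to those of neuregulins or able to bind ErbB receptors, limma called 0 above and 0 below 1 TPM. By the unadjusted p the counts were 0 and 1, and 2 and 1 with a mean-variance trend. With so few genes, these counts are not set apart from the shares over all genes given for those settings. Tmeff1 and Tmeff2, transmembrane proteins with follistatin and EGF-like domains, were high in replicates 2 and 3 and low in replicate 1. Tmeff1 had 0.345, 59.8 and 35.9 TPM (limma, adjusted p = 0.201) and Tmeff2 had 0.190, 34.7 and 76.9 TPM (limma, adjusted p = 0.218). Cspg5, a brain proteoglycan also called neuroglycan C, had 3.16, 0.747 and 0.176 TPM, and the mucin Muc4, which can bind ErbB2, had 10, 1 and 0 reads.

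Of 14 genes for the release of membrane-bound ligands, 7 lay above 1 TPM, against 16.2% of all genes tested, and 7 passed neither way. All 14 had a read in every library (list median 4.22 in log2(TPM + 1), against 0.89 over all genes tested). The metalloprotease Adam10 had 225, 260 and 394 TPM, a mean of 293 ± 89.4 (SD, n = 3; limma, adjusted p = 0.00342). Adam17, which sheds many EGF-type ligands and type I neuregulin 1, had 94.8, 106 and 50.2 TPM (limma, adjusted p = 0.00563). Bace1, the protease that cleaves neuregulin 1 type III for myelination, had 40.0, 76.5 and 42.1 TPM (limma, adjusted p = 0.00616), and Adam9 had 36.5, 70.1 and 118 TPM. Of the gamma-secretase subunits, Psenen was above at 94.5 ± 44.4 TPM and Ncstn at 13.1 ± 7.08 (SD, n = 3). Rhbdf2, an iRhom that carries Adam17 to the surface, was low in replicate 3, at 98.0, 51.3 and 0.0987 TPM, while its relative Rhbdf1 was above 1 TPM at 30.8, 15.6 and 6.86 TPM. Adam19, another protease that can shed neuregulin 1, had 0.729, 5.34 and 0.0734 TPM, and the subunits Aph1a and Aph1c had means of 1.82 ± 2.40 and 0.625 ± 0.712 TPM.

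**Figure D3:**
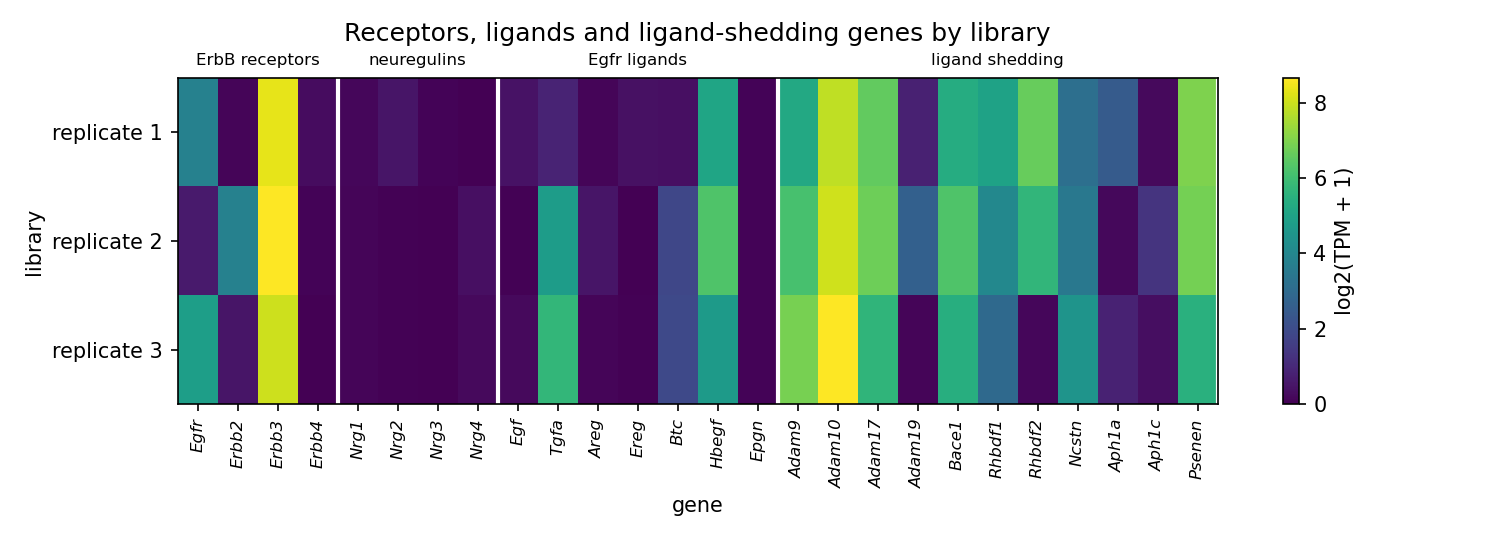
Colour gives log2(TPM + 1) of each gene (columns) in each library (rows) for ErbB receptors, neuregulins, EGF-type ligands of Egfr and those ligand-shedding genes that the text names. Erbb3 and Adam10 are bright in all 3 libraries, the neuregulins are dark in all 3, and Egfr, Erbb2, Tgfa and Rhbdf2 change from library to library.

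Downstream of the receptors, Pik3r1, a regulatory subunit of PI3-kinase, had 302, 288 and 169 TPM, a mean of 253 ± 73.0 (SD, n = 3; limma, adjusted p = 0.00356). Of 15 genes of the PI3-kinase and Akt relay, 6 lay above 1 TPM, against 16.2% of all genes tested. Another 8 passed neither way and 1 had no read. The unread gene was the regulatory subunit Pik3r2, whose 3-read floor was 0.281, 0.281 and 0.300 TPM. The count below was 0 (limma; 1 by the unadjusted p and 1 with a trend). The list median was 3.32 in log2(TPM + 1). The catalytic subunit Pik3ca was above at 17.5, 30.2 and 51.5 TPM, while Pik3cb and Pik3cd, the other catalytic subunits of the list, had means of 1.14 ± 0.739 and 0.147 ± 0.119 TPM and passed neither way. Gsk3b, a kinase that Akt inhibits, had 222 ± 70.8 TPM and Pdpk1, which activates Akt, 43.6 ± 21.9 (SD, n = 3). Pik3r3, another regulatory subunit, had 33.4 and 27.5 TPM in replicates 1 and 3 and 0 reads in replicate 2, and Rptor, an mTOR partner, had 0.821, 33.5 and 0.380 TPM.

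Of 12 genes of the Ras and MAP kinase relay, 8 lay above 1 TPM, against 16.2% of all genes tested. The other 4 passed neither way, and the list median was 5.95 in log2(TPM + 1). The count below was 0 (limma; 0 also by the unadjusted p, and 0 with a trend). Nras, a Ras GTPase, had 152 ± 48.0 TPM, the kinases Araf and Mapk3 125 ± 63.2 and 110 ± 58.7, and Dusp6, a phosphatase induced by and acting on MAP kinases, 110 ± 27.0 (SD, n = 3), with adjusted p in limma between 0.00356 and 0.00977. Hras and the scaffold Ksr1 were low, at 1.36 ± 1.68 and 1.76 ± 2.27 TPM. Map2k2, a kinase that activates MAP kinases, had 8.03, 0.0862 and 0.314 TPM and was low in replicates 2 and 3.

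Of 19 adaptors and SH2-domain effectors, 9 lay above 1 TPM, 1 below and 9 neither, with a list median of 3.41 in log2(TPM + 1). Over all genes tested 16.2% were called above and 13.6% below. Gab1, a docking protein downstream of ErbB receptors, led at 195 ± 73.3 TPM, followed by the adaptors Nck1 at 141 ± 51.0 and Crk at 118 ± 84.6, and by Sos1, an activator of Ras, at 71.1 ± 27.2 (SD, n = 3), with adjusted p in limma between 0.00389 and 0.0313. Shc2 was below, at 0.0938 ± 0.0777 TPM, and the kinase Src, at 0.174 ± 0.101 TPM, passed neither way. The common adaptors Shc1 and Grb2 were high in different libraries. Shc1 had 0, 23 and 673 reads, which was 1.61 and 49.8 TPM in replicates 2 and 3, and Grb2 had 44.1, 11.7 and 0.752 TPM. Stat5a had 0.343, 5.77 and 0.659 TPM.

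Of 17 negative regulators of the receptors or of the relays below them, 9 lay above 1 TPM, against 16.2% of all genes tested. Another 7 passed neither way and 1 had no read. The unread gene was Lrig3, with a 3-read floor of 0.141, 0.140 and 0.150 TPM. The count below was 0 (limma; 0 also by the unadjusted p, and 0 with a trend), and the list median was 5.26 in log2(TPM + 1). The ubiquitin ligase Nedd4 had 290, 367 and 299 TPM, a mean of 318 ± 42.4 (SD, n = 3; limma, adjusted p = 0.00336), and Wwp1, a ligase of the same family that can target ErbB4, had 153 ± 91.2. Spry2 and Spred1, feedback inhibitors of the Ras pathway, were steady at 139 ± 19.1 and 136 ± 15.1 TPM. Rnf41, the ligase also called Nrdp1 that lowers ErbB3 protein, had 11.5, 14.0 and 0.305 TPM (limma, adjusted p = 0.246). Cblb, a ligase of the Cbl family, had 81.8, 17.7 and 0.0826 TPM, and Spred2 had 23.9, 46.5 and 0.656 TPM, and these 3 genes were low in replicate 3. Lrig1, which promotes receptor breakdown, had 0.228, 0.647 and 10.2 TPM, and Spry4 had 0.704, 3.77 and 6.85 TPM, both highest in replicate 3.

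Of 6 chaperones and scaffolds of the receptors, 3 lay above 1 TPM, 1 below and 2 neither. Over all genes tested 16.2% were called above and 13.6% below, so the 1 below is near its share and is not read further. The list median was 4.53 in log2(TPM + 1). Hsp90aa1 and Hsp90ab1, the chaperones that stabilise ErbB2 protein, had 503 ± 48.5 and 544 ± 119 TPM. Their co-chaperone Cdc37 had 1.44, 55.5 and 2.36 TPM, high in replicate 2 alone. Erbin, a scaffold that binds ErbB2, had 68.0, 45.2 and 101 TPM, a mean of 71.3 ± 27.8 (SD, n = 3; limma, adjusted p = 0.00607). Dlg4, a synaptic scaffold that binds ErbB4, was below 1 TPM with 0, 1 and 0 reads.

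Of 10 nuclear factors of the Schwann lineage tied to neuregulin signalling, 4 lay above 1 TPM, 1 below and 4 neither, and 1 had no read. Over all genes tested 16.2% were called above and 13.6% below, so the 1 below is near its share and is not read further. Sox10, which is known to drive Erbb3 in the neural crest lineage, had a mean of 81.1 ± 73.6 TPM (SD, n = 3; limma, adjusted p = 0.0273). Wwtr1, the co-activator also called TAZ, had 12.1, 98.0 and 122 TPM, Pou3f2 121, 31.0 and 30.2 TPM, and Etv1 82.1, 15.2 and 35.2 TPM, all called above 1 TPM, with adjusted p in limma between 0.0233 and 0.0487. Yap1, the relative of Wwtr1, had 35.1, 2.54 and 0.282 TPM and was not called. Egr2, the factor that switches on myelin genes, had 0, 0 and 5 reads, and Pou3f1, which acts before it in myelinating Schwann cells, had no read, with a 3-read floor of 0.305, 0.305 and 0.326 TPM. Nfatc4, a calcineurin target, was below 1 TPM with 0, 1 and 0 reads.

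**Figure D4:**
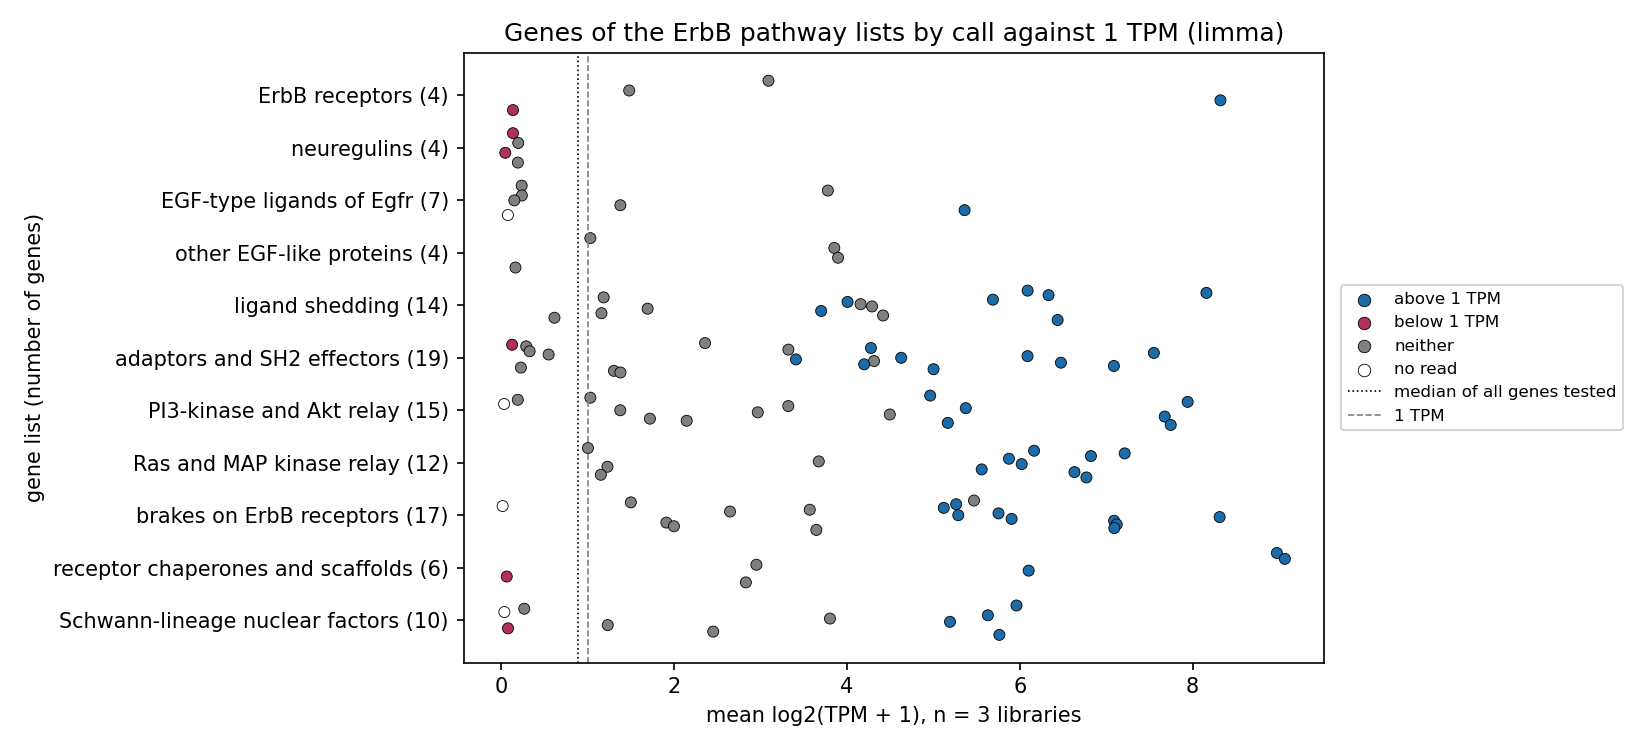
Each point is 1 gene of the 11 pathway lists, at its mean log2(TPM + 1) over 3 libraries, blue where limma called it above 1 TPM (dashed line), dark red where below, grey where neither and white where it had no read, with the median of all genes tested as a dotted line. The neuregulins all lie left of both lines, and Erbb3 lies at 8.32. The Ras and MAP kinase list has 8 of its 12 genes above 1 TPM, against 16.2% of all genes tested.

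Over the 104 genes of the pathway lists other than the 8 members, 47 lay above 1 TPM and 3 below, with 16.2% and 13.6% of all genes tested called in those directions. The listed genes are protein-coding, while the genes tested also include other kinds. No share or median over protein-coding genes alone was computed. Leaving out replicate 1 or replicate 2, where limma called no gene of the table either way, took both counts to 0, and leaving out replicate 3 gave 24 above and 5 below, with 8.89% and 17.8% of all genes called. Many of these genes serve other receptors too, so their levels do not describe ErbB signalling alone.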

How the data were processed

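RNA was measured in 3 libraries of LepR+ cells, 1 group with n = 3. The authors deposited log2 TPM per gene. STAR, featureCounts and the build mm10 (GRCm38) are named, per the submitters' processing notes, without versions. The sources used here do not give the annotation release, the strand setting or how TPM were made. With exon lengths from GENCODE M21 (GRCm38), the values were whole reads plus 0.25 in all libraries for 49791 genes within 0.02 of a read, and for 2758 more with a length solved from the values within 0.002. For 1 gene no reads were recovered, and 147 IDs were not in M21. From these reads came the filter of 1 read in at least 1 library (27396 genes tested, 25154 left out), the floors of 3 reads and the ratios.

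A two-sided limma test (limma 3.58.1 in R 4.3.3, prior degrees of freedom 1.20) set the mean of log2(TPM + 1) of each gene against the level of 1 TPM, with Benjamini-Hochberg adjustment over the 27396 genes and a threshold of 0.05. The pseudocount of 1 makes differences of low genes look smaller. Means and SDs use values as deposited. Pairs of members were compared within libraries by an exact sign-flip test. Ratios of reads have exact binomial intervals. Other work used Python 3.11.15, numpy 2.4.6, pandas 2.3.3, scipy 1.17.1, statsmodels 0.14.6 and matplotlib 3.10.9. The members and gene lists were chosen with earlier results of these data known. Named genes were all members, all genes of lists of up to 7, and of longer lists the 4 highest above 1 TPM, the 2 lowest with a read and up to 3 above 5 TPM in 1 library and under 1 TPM in another, with up to 3 genes of a marker list. Bace1, Ncstn, Rhbdf1, Pik3ca, Ngfr, Gfap, Ocln and Stxbp6, and genes without a read, were added after their values were seen. Some genes of the lists and 1 sequence are not reported here. Alternatives were other pseudocounts, filters, scalings, a mean-variance trend, a level of 0.5 TPM and leaving out each library.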

Additional observations from a re-analysis of the deposited data

How the results depend on the processing

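The number of members above 1 TPM, Erbb3 alone, was 1 under every pseudocount, filter, scaling, trend and level tried, and from 0 to 1 when a library was left out. The number of members below 1 TPM was 3. It was 0 with a filter on mean TPM of 0.5, where Erbb4 and the neuregulins are not tested. It was also 0 without mitochondrially encoded genes and 0 against a level of 0.5 TPM. With each of these settings limma called 0 genes of the whole table below, so these counts of 0 are not particular to the members. Members below numbered 5 with no filter and 5 with a mean-variance trend, where 56.8% and 35.2% of all genes were below, against 13.6%. From 0 to 2 members were below when a library was left out. Pathway genes below 1 TPM numbered 3, but 0 with the filter on mean TPM, 0 without mitochondrially encoded genes and 0 against 0.5 TPM. They numbered 14 with no filter and 12 with the trend, and from 0 to 5 when a library was left out. At each setting that gave 0 for the pathway genes, the whole table also had 0 genes called below. Pathway genes above 1 TPM numbered 47, and from 0 to 24 when a library was left out. Leaving out a library leaves 2 values per gene. Leaving out mitochondrially encoded genes raised log2 TPM of every other gene by 0.32 to 0.34, and less on the log2(TPM + 1) scale for low genes. The difference of Erbb2 from 1 TPM, 0.48, turned to -0.0030 with a pseudocount of 0.1, and ranged from -0.68 to 1.16 when a library was left out. Pairs of members with 1 direction in all libraries numbered 16 of 28, and from 17 to 25 when a library was left out, since fewer libraries have to match. Of 83 member values under the alternatives, 62 kept their direction and side of the threshold, 15 missed it, 4 newly passed it and 2 turned. The causes were not tested beyond what the alternatives' construction shows. Depth limits the neuregulins and Erbb4, whose values rest on 0 to 7 reads per library. No paired analysis was possible because the series has 1 group.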
